A study of Mus musculus with 3 samples.

Results

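Chemokines are small secreted proteins that direct the movement of cells, and their receptors are the surface proteins that read them. The genes described here are the 53 chemokine and chemokine receptor genes measured on a set of 3 mouse arrays, out of 22180 genes that could be named. A gene entered by its name alone: a probe set was taken when its single annotated symbol was Ccl, Cxcl, Ccr or Cxcr with digits, or Cx3cl1, Cx3cr1, Xcl1, Xcr1 or Ackr1 to Ackr4, and Cxcl15 was left out. The 53 genes were 32 ligands and 21 receptors, and each was read by exactly 1 probe set. Ccl19 had no probe set of its own under this rule and was not analysed here.

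Chemokines are grouped by the spacing of their first cysteines into the CC, CXC, CX3C and XC families. They are held on cell surfaces by heparan sulphate and act through receptors that couple to inhibitory G proteins and steer migrating leukocytes along a gradient, while the atypical receptors bind chemokines without that signal and remove or relocate them. In the lung, ELR-bearing CXC ligands (named for a short Glu-Leu-Arg motif) draw neutrophils through Cxcr2, Ccl2 draws monocytes through Ccr2, and Cxcl12 and Cxcl13 organise the traffic of stromal niches and of B cells.

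RNA was measured on 1 array for each of 3 groups. FULA 1 is a mouse lung adenocarcinoma line, a single line grown in culture in medium with fetal bovine serum, without the vessels, stroma and immune cells of a lung. The saline lung was from mice of the inbred FVB strain after an injection of saline, and the urethane lung was from FVB mice 1 week after an intraperitoneal injection of urethane, a carcinogen that produces lung tumours in mice. The labels call the lung material lung cells, and neither the number of mice behind each lung array, their age and sex, nor the time at which the saline lung was taken is given in the sources used here. With 1 array in each group there were no replicates, so no spread between replicates, test or standard error can be given. Every value below compares these 3 arrays and not the conditions.

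The 3 deposited columns were on different scales, with medians of 4.96 for FULA 1, 0.08 for the saline lung and 1.22 for the urethane lung on the log2 scale. They were therefore brought to a common distribution by quantile normalization, and each gene is also given by its percentile rank among the 41345 probe sets of its array, which no rescaling of an array can alter. As a mark of background, the 95th percentile of the 1105 olfactory receptor genes on the same array was used, since these receptors belong to the nasal epithelium. The mark lay at a normalized log2 value of 1.96 on FULA 1, of 2.46 on the saline lung and of 2.44 on the urethane lung. A value below its mark was replaced by the mark before 2 arrays were compared, so the difference is then a lower bound, written as "at least". Where both values of a gene were below their marks no size is given, and a gene was called at a difference of at least 2-fold, or 1 on the log2 scale. Of the markers that check the labels, the pan-leukocyte gene Ptprc was below the mark on FULA 1 at 1.62 and above it on the saline lung at 3.06 and the urethane lung at 3.35. The 5 epithelial markers were above the mark on all 3 arrays.

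On each lung more of these genes lay below the mark than at or above it. At or above the mark were 27 of the 53 on FULA 1, 22 of them on the saline lung and 24 of them on the urethane lung, or 50.9%, 41.5% and 45.3%. Among all 22180 genes the shares were 58.2%, 49.5% and 48.9%. Of the 32 ligands, 17, 15 and 16 were at or above it on FULA 1, the saline lung and the urethane lung, and of the 21 receptors 10, 7 and 8. There were 14 genes above the mark on all 3 arrays and 19 below it on all 3. FULA 1 alone was above it for 8 genes, namely Ccl7, Ccl17, Ccl20, Ccl28, Cxcl1, Cxcl3, Cxcl5 and Ccr8. Both lungs but not FULA 1 were above it for 6 genes, namely Ccl5, Ccl6, Ccl11, Cxcl10, Cxcl12 and Cxcl13. With the stricter 99th percentile as the mark, 14, 14 and 12 genes passed on FULA 1, the saline lung and the urethane lung, or 26.4%, 26.4% and 22.6%. Among all genes 44.5%, 27.6% and 28.0% did, so that the share of these genes lay below that of all genes, most of all on FULA 1.

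**Figure D1:**
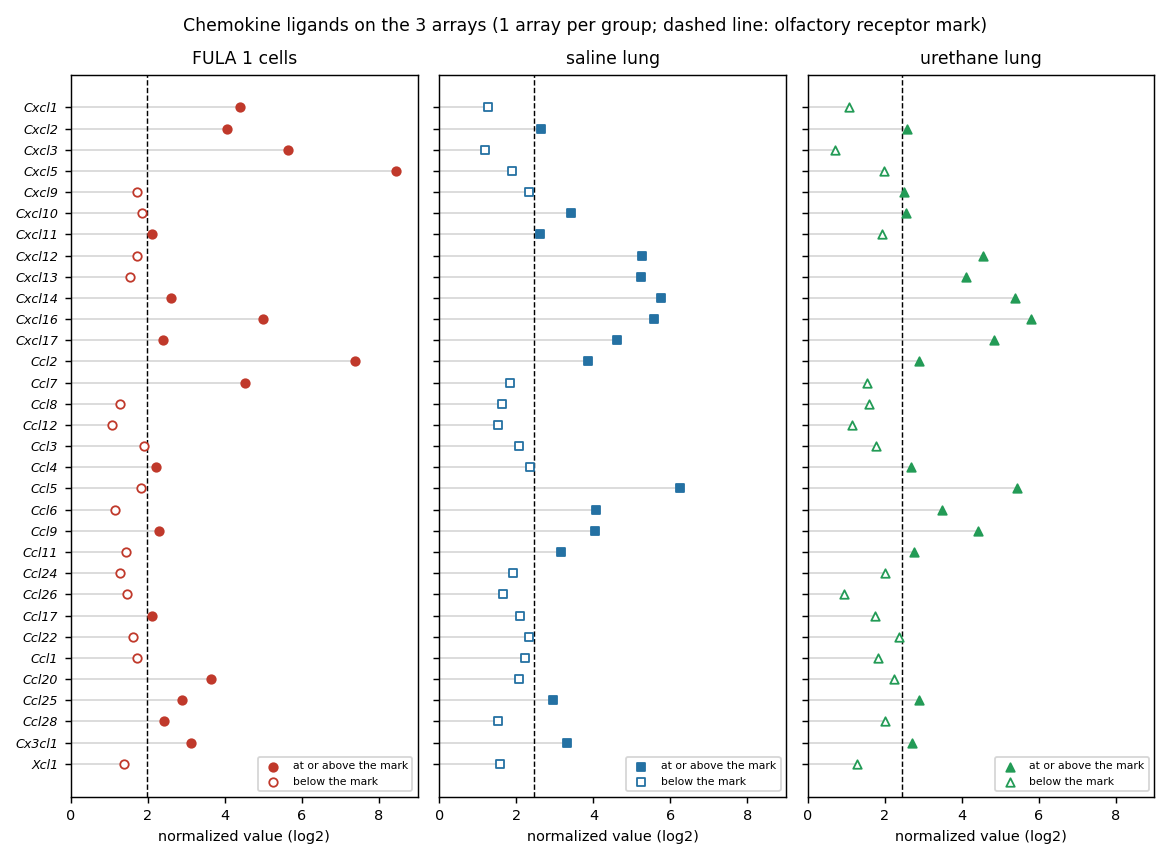
Normalized log2 value of the 32 chemokine ligands (rows, ordered by receptor group) on FULA 1 cells, saline lung and urethane lung, 1 array each; the dashed line is the olfactory receptor mark of that array and open symbols lie below it. Cxcl1, Cxcl3 and Cxcl5 are filled on FULA 1 only, and Ccl5, Cxcl12 and Cxcl13 are filled on both lungs and open on FULA 1.

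Against the saline lung, FULA 1 was at least 2-fold higher for 7 of the 53 genes (13.2%) and at least 2-fold lower for 12 (22.6%). Over all genes, 10.8% were called higher and 11.2% lower in that comparison. Against the urethane lung, FULA 1 was higher for 7 genes (13.2%) and lower for 11 (20.8%), beside 10.4% and 9.73% of all genes. The share called higher was thus near that of all genes in both comparisons. The share called lower was above that of all genes in both, and this difference was not tested. The 7 higher genes were the same in both comparisons, and 10 were lower in both. The comparisons share the FULA 1 array, so the second does not repeat the first, and their values are given side by side. The median difference of the 53 genes was -0.46 against the saline lung and -0.30 against the urethane lung, where all genes had -0.11 and -0.08. These directions are relative to each array's own distribution. On the values as deposited, where FULA 1 lay 4.80 above the saline lung and 3.69 above the urethane lung at the median gene, 27 of the 53 (50.9%) were higher in FULA 1 and 0 lower in each comparison. Of all genes, 57.8% were then called higher and 0.0857% lower against the saline lung, and 57.7% higher and 0.0947% lower against the urethane lung, so the share of these genes called higher was the smaller one. Among all called genes, 49.2% were higher in FULA 1 than in the saline lung and 51.5% than in the urethane lung, against 86.9% and 88.3% when the arrays were only shifted to a common median. How far 1 probe set can be trusted was read from genes with 2 probe sets, whose differences between FULA 1 and the saline lung lay a median of 0.91 apart, with the 90th percentile of that gap at 2.54, and had the same sign in 58.3%. Against the urethane lung the median gap was 0.93, the 90th percentile 2.30 and the share of the same sign 57.9%. Of the 19 genes called against the saline lung, 12 had a difference or bound within the 90th percentile, and the 7 beyond it were Ccl2, Ccl5, Cxcl3, Cxcl5, Cxcl12, Cxcl13 and Cxcl14. Against the urethane lung 11 of 18 were within it, and Cxcl17 took the place of Cxcl13 among the 7 beyond it. These gaps come from the same arrays and hold no spread between cultures or animals. Because FULA 1 is a pure culture and the lungs are mixtures, fewer cells of a type and less RNA per cell cannot be told apart in any of these values, and the same holds between the lungs.

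**Figure D2:**
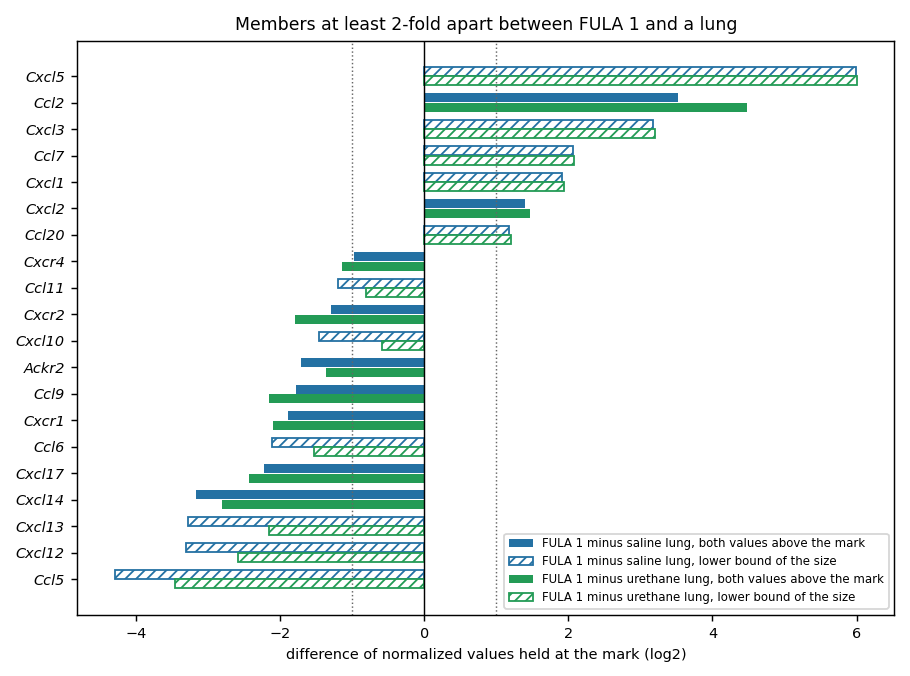
Difference in normalized log2 value, FULA 1 minus saline lung and FULA 1 minus urethane lung, for the 20 genes called in at least 1 of the comparisons; hatched bars are lower bounds because 1 value was held at the mark, and dotted lines mark 2-fold. There are 7 genes to the right and 13 to the left; on the values as deposited no gene lies at least 2-fold to the left, and Ackr2, Ccl9, Cxcl14, Cxcl17, Cxcr1, Cxcr2 and Cxcr4 turn to the right.

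The 4 ELR-bearing CXC ligands that entered by name, Cxcl1, Cxcl2, Cxcl3 and Cxcl5, attract neutrophils through Cxcr2, and each was higher in FULA 1 than in either lung. Ppbp (CXCL7) and Cxcl15 (lungkine) carry the ELR motif too but lay outside the rule, and neither was higher in FULA 1 after quantile normalization, although Ppbp was as deposited. Ppbp stood at 7.80 on FULA 1, at 9.35 on the saline lung and at 8.78 on the urethane lung, and Cxcl15 at 1.51, 8.41 and 8.85. Cxcl5, also called LIX and made mainly by epithelium, had a normalized log2 value of 8.45 on FULA 1, of 1.87 on the saline lung and of 1.98 on the urethane lung. It was at percentile rank 99.1 on FULA 1 and at 42.8 and 46.9 on the lungs. The difference was at least 5.99 against the saline lung and at least 6.01 against the urethane lung, that is at least 63.5-fold and 64.4-fold. These were the largest lower bounds among the 53 genes in their comparisons. Cxcl3, a neutrophil attractant of the Gro group, stood at 5.65, 1.19 and 0.72 on FULA 1, the saline lung and the urethane lung. It was higher in FULA 1 by at least 3.18 and 3.20, with both lungs well below their marks.

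Cxcl1 (KC), the archetypal mouse counterpart of the Gro chemokines, stood at 4.38 on FULA 1, at 1.27 on the saline lung and at 1.06 on the urethane lung. It was higher in FULA 1 by at least 1.92 and 1.94. Cxcl2 (MIP-2), which macrophages and epithelium release after inflammatory signals, was alone in this group in passing the mark on every array, at 4.04, 2.64 and 2.58. Its differences of 1.40 and 1.46 are therefore sizes and not bounds, but coarse ones. Both lung values lay close to their marks, and that of the urethane lung was shared by 639 probe sets. Between the lungs no member of the group was called: Cxcl2 differed by -0.06 and the other 3 ligands were below the mark on both. With the 99th percentile as the mark, Cxcl1 at 0.90 and 0.95 and Cxcl2 at 0.57 and 0.61 no longer reached 2-fold, while Cxcl3 and Cxcl5 did.

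The promoters of these ligands are shown because 4 of the 7 genes higher in FULA 1 had a RefSeq window, and each of the 4 held the same short motif. The other higher genes, Ccl2, Ccl7 and Cxcl5, had no window. Cxcl1, Cxcl2 and Cxcl3 belong to a single run of related genes on chromosome 5, so the 4 are not independent. Windows chosen in this way cannot test a link between the motif and the calls. RefSeq windows of 300 bases, from 250 before to 50 after the transcription start on build GRCm38.p6, were found for 39 of the 53 genes. They were searched on both strands for GGGNNNTTCC, a simple form of the site bound by NF-kB, the transcription factor that responds to inflammatory signals. The letters occurred in 5.56% of all 32851 windows and in the windows of 9 of the 39 genes: Ccl1, Ccl9, Ccl20, Ccr3, Ccr6, Cxcl1, Cxcl2, Cxcl3 and Cxcl10. Of the 35 matched genes that were not higher in FULA 1 than in the saline lung, 5 held it. All the windows below lie on the plus strand, and capitals mark every match on either strand.
Cxcl1, chr5:90890995-90891294: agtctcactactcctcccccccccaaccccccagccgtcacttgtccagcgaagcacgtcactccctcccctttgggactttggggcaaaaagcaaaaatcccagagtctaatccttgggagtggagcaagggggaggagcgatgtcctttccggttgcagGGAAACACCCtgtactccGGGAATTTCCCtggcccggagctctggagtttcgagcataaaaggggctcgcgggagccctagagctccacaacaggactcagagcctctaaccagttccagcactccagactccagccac
Cxcl2, chr5:90903649-90903948: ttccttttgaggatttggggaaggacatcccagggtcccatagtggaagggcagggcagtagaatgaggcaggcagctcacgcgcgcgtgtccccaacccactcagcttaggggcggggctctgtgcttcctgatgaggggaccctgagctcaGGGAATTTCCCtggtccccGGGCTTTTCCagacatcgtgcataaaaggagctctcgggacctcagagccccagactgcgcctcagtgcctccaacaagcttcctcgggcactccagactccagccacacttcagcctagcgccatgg
Cxcl3, chr5:90785851-90786150: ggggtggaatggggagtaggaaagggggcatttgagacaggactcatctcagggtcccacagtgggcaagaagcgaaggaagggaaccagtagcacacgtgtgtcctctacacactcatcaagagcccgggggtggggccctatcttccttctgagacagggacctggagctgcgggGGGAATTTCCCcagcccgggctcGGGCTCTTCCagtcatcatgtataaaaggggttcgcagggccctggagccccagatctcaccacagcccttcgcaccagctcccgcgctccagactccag
Ccl20, chr1:83116516-83116815: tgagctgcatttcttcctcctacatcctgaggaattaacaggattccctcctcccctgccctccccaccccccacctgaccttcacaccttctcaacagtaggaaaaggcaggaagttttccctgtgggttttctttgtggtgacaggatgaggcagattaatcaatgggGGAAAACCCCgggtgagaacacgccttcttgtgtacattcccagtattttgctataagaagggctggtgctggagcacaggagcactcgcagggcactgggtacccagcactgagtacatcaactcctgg
The run GGGAATTTCC began 71 bases before the start in Cxcl1, 97 in Cxcl2 and 73 in Cxcl3, and on the other strand an overlapping match began 1 base further on. Cxcl2 also held GGGCTTTTCC at 78 bases before the start, Cxcl3 held GGGCTCTTCC at 50, Cxcl1 held GGAAACACCC at 89, and Ccl20 held GGAAAACCCC at 80, the last 2 being matches of the opposite strand. Genes called lower in FULA 1 held the motif too. Against the saline lung, Ccl9 stood at a difference of -1.77 and Cxcl10 at a bound of -1.45, and both windows had it. The other lower genes of that comparison with a window, Ackr2, Ccl6, Cxcl12, Cxcl13, Cxcl14, Cxcr1 and Cxcr2, did not. The window of Cxcl13, a B cell attractant that was lower in FULA 1, is set beside them as one with 0 matches.
Cxcl13, chr5:95956689-95956988: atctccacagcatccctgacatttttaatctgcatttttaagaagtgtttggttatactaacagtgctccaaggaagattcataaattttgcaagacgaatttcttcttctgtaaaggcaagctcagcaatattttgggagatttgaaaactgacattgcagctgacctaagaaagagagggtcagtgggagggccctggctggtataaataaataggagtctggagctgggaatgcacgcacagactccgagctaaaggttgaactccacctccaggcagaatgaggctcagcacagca
In these same windows the AP-1 letters TGANTCA occurred in 6 of the 39 genes and in 7.81% of all windows. The interferon response letters GAAANNGAAA occurred in Cxcl10 and Cxcl14 and in 3.44% of all windows, and the TATA letters TATAAA in 12 of the 39 genes and in 13.6% of all windows. These matches describe the letters only, and binding at them was not tested.

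Ccr2 ligands divided into a pair high in FULA 1 and a pair below the mark everywhere. Ccl2 (MCP-1), the main monocyte attractant, stood at 7.37 on FULA 1, at 3.85 on the saline lung and at 2.89 on the urethane lung, at percentile ranks 98.0, 81.5 and 68.2. All 3 values were above the mark, and FULA 1 was higher by 3.52 and 4.48, or 11.4-fold and 22.3-fold. Its value on the urethane lung was shared by 559 probe sets, that of Ccl25 among them, and so is coarse. Ccl7 (MCP-3), a monocyte attractant and the next gene on the chromosome, stood at 4.53 on FULA 1 and below the mark on the lungs at 1.83 and 1.54. It was higher in FULA 1 by at least 2.06 and 2.08. Ccl8 and Ccl12, further monocyte attractants of this group, were below the mark on all 3 arrays.

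Among the ligands of Ccr6, Ccr7, Ccr9 and Ccr10, Ccl20 alone was called. Ccl20, which epithelium makes to draw Ccr6-bearing dendritic and Th17 cells, stood at 3.65 on FULA 1 and below the mark on the saline lung at 2.07 and the urethane lung at 2.24. It was higher in FULA 1 by at least 1.18 and 1.20, although this fell short of 2-fold, at 0.17 and 0.21, with the 99th percentile as the mark. Ccl28, a mucosal epithelial ligand of Ccr10, stood at 2.41, 1.53 and 2.01 on FULA 1, the saline lung and the urethane lung, and its FULA 1 value did not exceed the lung marks. Ccl25, the thymic and gut ligand of Ccr9, stood at 2.88, 2.95 and 2.89, nearly level over the 3 arrays. Of the receptors for these ligands, Ccr6, Ccr9 and Ccr10 lay below the mark on all 3 arrays.

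Of the 5 remaining CXC ligands, 4 were called lower in FULA 1 than in each lung. Cxcl12 (SDF-1), the stromal ligand of Cxcr4, stood at 1.71 on FULA 1, below the mark, and at 5.26 and 4.54 on the saline and urethane lungs. It was lower in FULA 1 by at least 3.30 and 2.58 on the log2 scale. Cxcl13, which guides B cells through Cxcr5, stood at 1.52, 5.25 and 4.12, and was lower in FULA 1 by at least 3.28 and 2.16. On the values as deposited these 2 bounds, like every bound of a gene lower in FULA 1, were no longer 2-fold.

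Cxcl14, an epithelial and stromal chemokine, stood at 2.59 on FULA 1, at 5.75 on the saline lung and at 5.39 on the urethane lung. Its differences were -3.16 and -2.80, and turned to 2.50 and 1.91 on the values as deposited. Cxcl17, a mucosal chemokine of the airways, stood at 2.40, 4.62 and 4.84, with differences of -2.22 and -2.44 that turned to 3.47 and 2.08 as deposited. Cxcl16, a membrane-bound ligand of Cxcr6 that also serves as a scavenger receptor, was not called, with 4.99 on FULA 1 and 5.58 and 5.80 on the lungs. It lay at percentile ranks 90.4, 93.4 and 94.1, while Cxcr6 lay below the mark on all 3 arrays. The Cxcl16 differences of -0.60 and -0.82 turned to 0.92 and 0.87 with the arrays only shifted to a common median. With a lowess curve subtracted, the difference against the urethane lung was -1.10.

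Of the 5 inflammatory CC ligands Ccl3, Ccl4, Ccl5, Ccl6 and Ccl9, 3 were called lower in FULA 1 than in each lung. Ccl5 (RANTES), which T cells and NK cells make, stood at 1.82 on FULA 1, below the mark, and at 6.26 and 5.42 on the saline and urethane lungs. Its percentile ranks were 41.0, 95.6 and 92.6, and FULA 1 was lower by at least 4.30 and 3.46 on the log2 scale, or 19.6-fold and 11.0-fold. Among genes lower in FULA 1, this was the widest bound in each comparison. Of the T cell markers, 1 of 7 was above the mark on FULA 1 (Cd5) and 4 of 7 on each lung, with the log2 of their summed linear values at 4.51, 5.73 and 5.42 on FULA 1, the saline lung and the urethane lung. In FULA 1, 4 of them were called lower than in the saline lung and 2 lower than in the urethane lung. Cd3d, Cd4 and Cd8a were below the mark on all 3 arrays. NK cell markers passed the mark for 2, 2 and 3 of 6, with sums of 4.28, 5.24 and 5.31, and their part in the result was not tested.

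Ccl6 (C10), a macrophage chemokine, stood at 1.15 on FULA 1, at 4.07 on the saline lung and at 3.49 on the urethane lung, lower in FULA 1 by at least 2.11 and 1.53. With the 99th percentile as the mark, the bound for Ccl6 against the urethane lung no longer reached 2-fold. Ccl9 (MIP-1 gamma), another myeloid ligand of Ccr1, stood at 2.28, 4.05 and 4.43, with differences of -1.77 and -2.15 that turned to 3.84 and 2.25 as deposited. Ccl4 (MIP-1 beta), from activated T cells and macrophages, was near the mark at 2.21, 2.36 and 2.67 and was not called. Ccl3 (MIP-1 alpha) was below the mark on all 3 arrays. Alveolar macrophage markers were above the mark for 4 of 6 on FULA 1 and 5 of 6 on each lung, with summed levels of 5.95, 6.92 and 6.68, and their part was not tested. Mrc1 of that list, at 5.24 on FULA 1, was called higher there by at least 2.77 and by 2.27, while Fabp4 and Chil3 were called lower in both comparisons. Monocyte and interstitial macrophage markers were above the mark for 2 of 9, 6 of 9 and 5 of 9. Their summed levels were 5.73, 6.52 and 6.09. In that list Cd14, at 4.79 on FULA 1, was alone in being called higher there, by 1.73 and 1.90. Lower calls numbered 5 against the saline lung and 4 against the urethane lung. C1qa, C1qb, Csf1r and F13a1 had them in both comparisons, and Ly6c2 against the saline lung only. The widest were those of F13a1, at -2.74 and -2.22 or beyond.

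Of the 3 interferon-induced ligands of Cxcr3, which recruit activated T cells, Cxcl10 alone was called, in 1 comparison. Cxcl10 (IP-10) stood at 1.85 on FULA 1, at 3.41 on the saline lung and at 2.55 on the urethane lung. FULA 1 was lower by at least 1.45 against the saline lung, a call, and by at least 0.58 against the urethane lung, which was none. Cxcl9 (MIG) passed the mark on the urethane lung only, at 1.72, 2.34 and 2.50. Cxcl11 (I-TAC) passed it on FULA 1 and the saline lung, at 2.12 and 2.62, with 1.92 on the urethane lung.

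Of the 3 eosinophil-directed ligands of Ccr3, Ccl11 alone passed the mark on an array. Ccl11 (eotaxin) stood at 1.42 on FULA 1, at 3.16 on the saline lung and at 2.76 on the urethane lung. FULA 1 was lower by at least 1.20 and 0.80, so that the call held against the saline lung alone, and it was lost, at -0.84, when the arrays were only shifted to a common median. Ccl24 and Ccl26, also eotaxins, and the receptor Ccr3 were below the mark on all 3 arrays. Eosinophil, mast cell and basophil markers were above the mark for 1 of 7 on FULA 1, 1 of 7 on the saline lung and 0 of 7 on the urethane lung.

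Of the ligands of Ccr4 and Ccr8, which guide Th2 and regulatory T cells, only Ccl17 (TARC) passed the mark, on FULA 1 at 2.11, with 2.09 and 1.74 on the lungs. Ccl1 and Ccl22, the other ligands of these receptors, were below it on all 3 arrays. Cx3cl1 (fractalkine), an adhesive chemokine anchored in the membranes of endothelium and epithelium, was above the mark throughout at 3.12 on FULA 1, at 3.32 on the saline lung and at 2.71 on the urethane lung. It was not called, at -0.20 and 0.41, although the latter became 1.31 with the arrays only shifted to a common median. Xcl1 (lymphotactin), a product of T and NK cells, was below the mark on all 3 arrays.

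**Figure D3:**
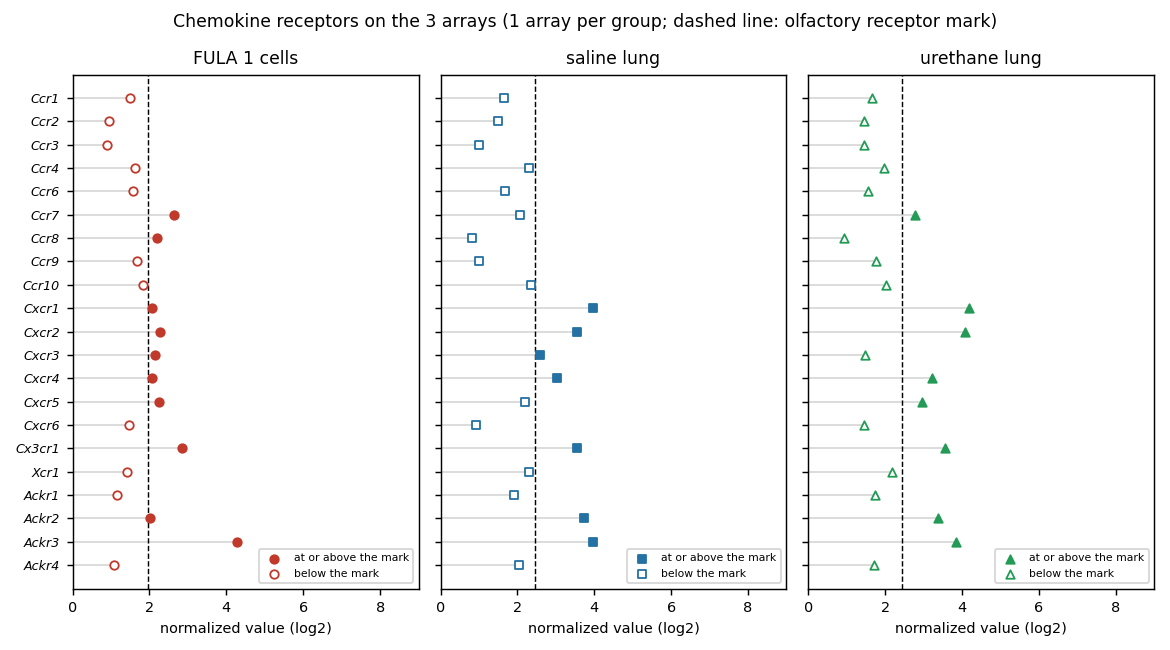
Normalized log2 value of the 21 chemokine receptors (rows) on FULA 1 cells, saline lung and urethane lung, 1 array each; the dashed line is the olfactory receptor mark of that array and open symbols lie below it. No CC receptor is filled on the saline lung, and Ackr2, Ackr3, Cx3cr1, Cxcr1, Cxcr2 and Cxcr4 are filled on all 3 arrays.

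After quantile normalization 0 of the 21 receptors were called higher in FULA 1, beside 10.8% of all genes against the saline lung and 10.4% against the urethane lung. Lower in FULA 1 were 3 receptors (14.3%) against the saline lung, near the 11.2% of all genes, and 4 (19.0%) against the urethane lung, beside 9.73%. Cxcr1 and Cxcr2, the neutrophil receptors for the ELR-bearing ligands, were both above the mark on each array. On FULA 1 both lay close to it and below the 99th percentile mark of 2.56, and the Cxcr1 value was shared by 51 probe sets. Cxcr1 stood at 2.07 on FULA 1, at 3.96 on the saline lung and at 4.16 on the urethane lung, differences of -1.89 and -2.10 that turned to 3.55 and 2.10 as deposited. Cxcr2 stood at 2.27, 3.56 and 4.07, differences of -1.29 and -1.80 that turned to 4.24 and 2.56 as deposited. With the arrays only shifted to a common median, Cxcr2 was at -0.64 against the saline lung and not called. Of their ligands, Cxcl1, Cxcl3 and Cxcl5 were below the mark on both lungs, while the ELR-bearing Ppbp and Cxcl15 outside the rule were among the highest signals there, Ppbp at percentile ranks 99.5 and 99.3 and Cxcl15 at 99.05 and 99.3. Neutrophil markers were above the mark for 0 of 8 on FULA 1 and 3 of 8 (S100a8, Retnlg and Csf3r) on each lung, with summed levels of 4.38, 6.43 and 6.06. Ly6g, a defining neutrophil gene, was below the mark on all 3 arrays, and the part of these cells in the result was not tested.

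Cxcr4, the receptor of Cxcl12, stood at 2.06 on FULA 1, at 3.03 on the saline lung and at 3.21 on the urethane lung. It was lower in FULA 1 by a difference of -0.97 against the saline lung, just short of a call, and of -1.15 against the urethane lung; the latter was -0.84 with the arrays only shifted to a common median and 2.91 as deposited. Cxcr3, the T cell receptor of the interferon-induced ligands, stood at 2.14, 2.59 and 1.48. Cxcr5, the B cell receptor of Cxcl13, stood at 2.25, 2.20 and 2.94 and passed the mark on FULA 1 and the urethane lung. Where they passed, both lay less than 1 log2 unit above the mark.

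Cx3cr1, the fractalkine receptor of monocytes, was above the mark throughout at 2.85, 3.56 and 3.54 and was not called. Ccr7, which brings dendritic cells and T cells to lymph nodes, stood at 2.65 on FULA 1, at 2.07 on the saline lung and at 2.77 on the urethane lung. Ccr8, a receptor of Th2 and regulatory T cells, stood at 2.19, 0.82 and 0.93, and its FULA 1 value did not exceed the lung marks. The CC receptors Ccr1, Ccr2, Ccr3, Ccr4, Ccr6, Ccr9 and Ccr10, with Cxcr6 and Xcr1, were below the mark on all 3 arrays. Ccr2 lay at percentile ranks 10.6, 29.1 and 26.5 on FULA 1, the saline lung and the urethane lung, although its ligand Ccl2 was above the mark on each.

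Of the atypical receptors, Ackr2 (D6), which removes inflammatory CC chemokines, was lower in FULA 1. It stood at 2.01 on FULA 1, at 3.73 on the saline lung and at 3.38 on the urethane lung, differences of -1.71 and -1.37 that turned to 3.66 and 2.68 as deposited. Ackr3 (CXCR7), which takes up Cxcl12, stood at 4.29, 3.96 and 3.84, differences of 0.33 and 0.45 and no call, although both reached 1.95 with the arrays only shifted to a common median. FULA 1 thus had Ackr3 above the mark while Cxcl12 was below it and Cxcr4 was only just above it. Ackr1, the Duffy antigen of venules and red cells, and Ackr4, which scavenges Ccl19 and Ccl21, were below the mark on all 3 arrays.

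Over the 19 genes that were below the mark on every array, the normalized log2 value ranged from 0.90 to 1.90 on FULA 1, from 0.92 to 2.36 on the saline lung and from 0.93 to 2.37 on the urethane lung. Their percentile ranks reached 43.6, 57.4 and 57.8. They are 8 ligands (Ccl1, Ccl3, Ccl8, Ccl12, Ccl22, Ccl24, Ccl26 and Xcl1) and 11 receptors. A signal below the mark on these arrays does not show that the RNA was absent.

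Between the lungs, 1 of the 53 genes differed by 2-fold. The urethane lung was at least 2-fold higher than the saline lung for 0 of the 53 genes and lower for 1, Cxcl13. Over all genes 1.15% were called higher and 0.428% lower. Among all called genes 72.8% were higher in the urethane lung, and 46.1% were when the arrays were only shifted to a common median. The median difference, urethane minus saline, was -0.12 over the 53 genes and -0.06 over all genes. As deposited 14 of the 53 genes (26.4%) were higher in the urethane lung and 0 lower, beside 32.8% and 0 of all genes. The median after normalization was -0.29 for the 32 ligands and -0.02 for the 21 receptors. Of the 20 genes above the mark on both lungs, 14 were lower in the urethane lung, with a range of -1.13 to 0.51 and 12 within 0.5 of zero; among all genes above the mark on both lungs 55.6% were lower. In genes with 2 probe sets, the differences between the lungs lay a median of 0.40 apart, with the 90th percentile of that gap at 1.10, which is close to the size of the Cxcl13 difference and holds no spread between animals.

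Cxcl13 stood at 5.25 on the saline lung and at 4.12 on the urethane lung, a difference of -1.13 or 2.18-fold, and percentile ranks of 91.7 and 84.1. As deposited the difference was 0.046. Its receptor Cxcr5 went the other way in size, with 2.20 on the saline lung, below the mark, and 2.94 on the urethane lung, and was not called. B cell markers were above the mark for 3 of 5 on each lung (Cd22, Cd79b and Pax5) with summed levels of 5.02 and 5.03, while Ms4a1 and Cd79a were below it, and their part was not tested.

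Next in size were 4 inflammatory or stromal ligands that did not reach 2-fold. Ccl2 differed by -0.96, Cxcl10 by -0.87, Ccl5 by -0.83 and Cxcl12 by -0.72, all lower in the urethane lung. On the values as deposited Ccl2, Cxcl10 and Cxcl12 turned to 0.49, 0.63 and 0.42. Normalized to the distribution of FULA 1, Ccl2 and Cxcl10 both passed 2-fold at -1.37. Ccl5 had the identical deposited value of 3.97 on both lungs, so its difference follows from the scales given to the arrays, and it was -1.14 with a common median. Cxcl2 and Ccl25 were level between the lungs at -0.06 each, and their sign turned with the shift to a common median. Among the genes above the mark on both lungs, Cxcr2 had the largest difference upward, at 0.51, followed by Ccl9 at 0.38. The 3 CXC receptors above the mark on both lungs, Cxcr1, Cxcr2 and Cxcr4, were all higher in the urethane lung, by 0.20, 0.51 and 0.18, and none was called. Cxcr3 went from percentile rank 62.6 to 27.9, a plain difference of -1.12, but its urethane value lay below the mark and the bound was only -0.15.

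**Figure D4:**
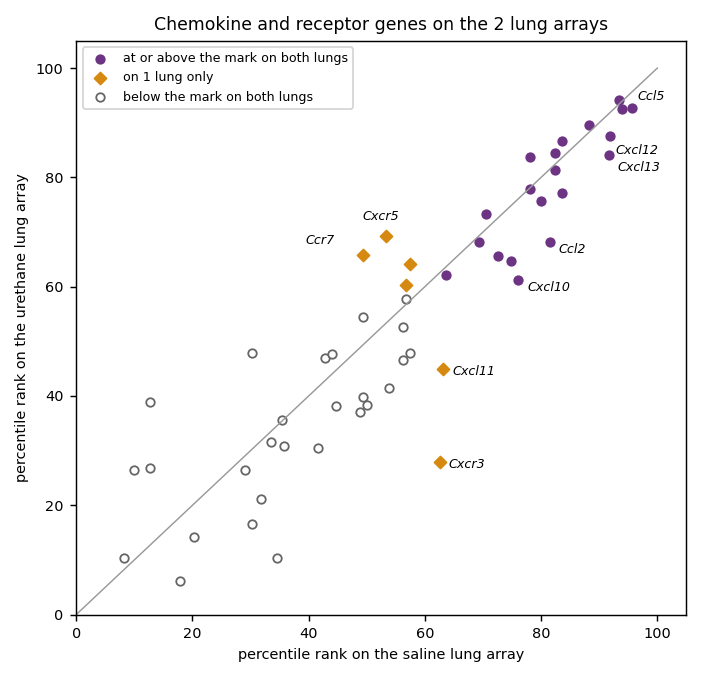
Percentile rank of the 53 genes on the saline lung array (horizontal) against the urethane lung array (vertical), among all 41345 probe sets; filled circles are above the mark on both lungs, diamonds on 1 lung and open circles on neither, and the line marks equal rank. Ccl5, Cxcl12, Cxcl13, Ccl2 and Cxcl10 lie below the line among the filled circles, and Cxcr3 falls farthest below it.

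Many of these genes lie side by side in the genome, and neighbours did not share one pattern. In the RefSeq gene order of GRCm38.p6, Cxcl5, Ppbp, Pf4, Cxcl3, Cxcl15, Cxcl1 and Cxcl2 follow each other on chromosome 5. The 4 genes of this run that entered by name were higher in FULA 1, while the 3 that did not were lower there than in the saline lung. Pf4 (CXCL4) and Ppbp, platelet chemokines, and Cxcl15, made by lung epithelium, differed from the saline lung by at least -3.03, by -1.55 and by at least -6.45. Against the urethane lung Pf4 differed by at least -1.87 and Cxcl15 by at least -6.88, while Ppbp was not called, at -0.98, and stood at 0.12 with a common median. As deposited Cxcl15 was still lower in FULA 1, by -1.89 against the saline lung and -2.68 against the urethane lung, while Ppbp turned to 3.37 and 3.87. On chromosome 11, Ccl2 and Ccl7 were higher in FULA 1, the adjoining Ccl11 was lower, and Ccl12, Ccl8 and Ccl1, next in order, were below the mark. In the other run of that chromosome, Ccl5, Ccl9 and Ccl6 were lower in FULA 1 and Ccl3 and Ccl4 were not called. None of the lower calls of Ccl5, Ccl6, Ccl9 and Ccl11 held on the values as deposited. The receptor run of chromosome 9, Ccr9, Cxcr6, Xcr1, Ccr1, Ccr3 and Ccr2, was below the mark on all 3 arrays throughout.

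**Figure D5:**
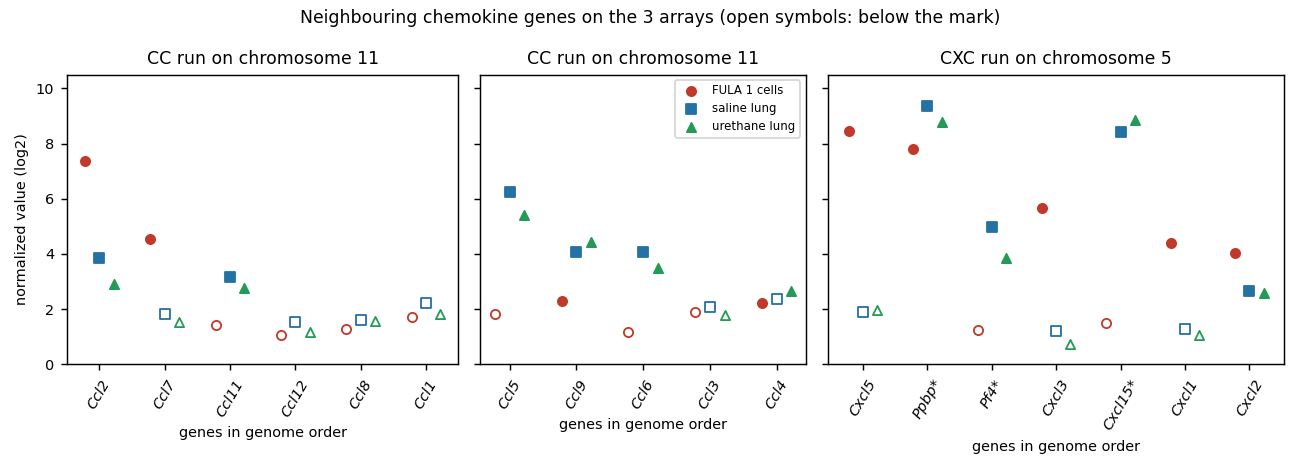
Normalized log2 value on FULA 1 cells, saline lung and urethane lung for 3 runs of neighbouring chemokine genes in genome order; open symbols lie below the mark and asterisks mark genes outside the rule. In the chromosome 5 run, Cxcl5, Cxcl3, Cxcl1 and Cxcl2 are highest on FULA 1, and Cxcl15 and Pf4 are open there and filled on both lungs; on the values as deposited Cxcl15 alone of these genes is at least 2-fold lower in FULA 1, and Ccl9 and Ppbp turn.

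Genes that act upstream and downstream of chemokines were read from lists of the same kind. Beside the counts of these lists, 10.8% of all genes were called higher and 11.2% lower in FULA 1 against the saline lung. Against the urethane lung these shares were 10.4% and 9.73%, and no list was tested against them. Of 17 inducing cytokines and genes of the NF-kB response, 4 were higher in FULA 1 than in the saline lung and 4 lower. The higher ones were the interleukin-1 receptor Il1r1 at 2.12 or more, Nfkbiz, an NF-kB cofactor, at 1.79, Tnfaip3, an NF-kB inhibitor, at 1.47, and the interferon gamma receptor Ifngr1 at 1.36. The lower ones were Irf1, a factor of the interferon response, at -2.43, the cytokine Il1b at -1.84 or beyond, Zfp36, which destabilises cytokine mRNA, at -1.76, and Tnf at -1.69. With the arrays only shifted to a common median Zfp36 was at -0.38 and no longer called, while Irf1, Il1b and Tnf kept their calls. Against the urethane lung the counts were again 4 higher and 4 lower. With a common median Irf1 at -0.71, Zfp36 at -0.95 and Tnf at -0.86 were not called there, while Il1b was. Between the lungs 1 of the 17 was called, Tnfrsf1a, higher in the urethane lung by 1.25, where 1.15% of all genes were called higher.

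Of 19 genes for signalling from chemokine receptors, FULA 1 was higher for 2 and lower for 5 against the saline lung, and higher for 1 and lower for 8 against the urethane lung. Rac2, the blood cell GTPase of migration, had the widest difference at -4.14 and -2.81, and was also -1.32 between the lungs. Of 10 genes for processing and holding chemokines, FULA 1 was higher for 3 and lower for 1 against the saline lung, and higher for 2 and lower for 3 against the urethane lung. Ext1, which builds heparan sulphate, was higher than in the saline lung by at least 2.91 and than in the urethane lung by at least 2.93. Adam10 and Adam17, proteases that shed Cx3cl1 and Cxcl16, were higher than in the saline lung by 2.16 and 1.06, but against the urethane lung by 2.06 and, short of a call, by 0.86. Mmp2, a protease that trims chemokines, was at -3.10 and -3.30. Mmp9 at -1.24 and Dpp4 at -1.10 or beyond, a pair of enzymes that also cut chemokines, were called lower against the urethane lung, but not with a common median, and had -0.92 and at least -0.78 against the saline lung. As deposited, the 4 lower genes Irf1, Zfp36, Tnf and Mmp2 turned to 3.55, 4.51, 3.68 and 2.31, Rac2 turned to 1.25 against the saline lung, and Il1b had a bound of 0. On those values 0 of the 53 chemokine and receptor genes, and 19 of all 22180 genes, had FULA 1 at least 2-fold below the saline lung.

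Stromal and vascular cells are known to make Cxcl12, and their markers were read beside it. Blood endothelial markers were above the mark for 3 of 6 on FULA 1 and 6 of 6 on each lung, with summed levels of 4.57, 9.10 and 8.78, and all 6 were called lower in FULA 1 than in each lung. Fibroblast markers were above it for 3 of 6 on FULA 1 and 5 of 6 on each lung, with summed levels of 5.09, 8.33 and 8.44. Of these 4 were called lower than in the saline lung and 5 lower than in the urethane lung, with Pdgfra at -0.30 against the saline lung, or 1.26 with a common median, and Lum below the mark on all 3 arrays. Lymphatic endothelial markers were above it for 4 of 5 on FULA 1 and 3 of 5 on each lung, with sums of 4.79, 6.28 and 6.20. Lyve1 was called lower in FULA 1 than in each lung and Mmrn1 lower than in the saline lung. Reln and Prox1 passed the mark on FULA 1 only, at 2.81 and 2.01. As deposited 0 of the markers called lower in these 3 lists was 2-fold lower. The part of these cells in the differences was not tested, and cell type, culture and tumour state cannot be told apart between FULA 1 and a lung.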

How the data were processed

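Total RNA of FULA 1 cells and of the lungs was isolated by Trizol and columns and labelled with biotin, per the labels' protocols, and hybridised to 1 array per group. The values are log2 signals of probe sets, deposited as 1 series table with a column for each array. For their making the submitters' processing notes name RMA, and the design text names GeneSpring GX 12.5. Build, annotation and background setting: not given in the sources used here. No column belonged to another sample (0 such columns).

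Of 41345 probe sets, 23521 carried 1 symbol, updated by Entrez identifier through the RefSeq table of GRCm38.p6. Columns were quantile-normalized to their mean sorted column (tied values at their mean rank), and a gene was the mean of its probe sets. Held differences, calls and percentile ranks were computed as the report describes, with Python 3.11.15, numpy 2.4.6, pandas 2.3.3, statsmodels 0.14.6 and matplotlib 3.10.9. The calls were also run on simulated data. These were made from the saline lung array with little noise, and differences were planted only in genes that began well above the mark. They do not show how far calls near the mark can be trusted. No statistical test was run, because each group has 1 array; the number of arrays limits the precision. Named genes were all 53 genes of the rule, with values for those called in any comparison or above the mark on any array. From the related lists some members past a call were named, but not all of them. Other genes of those lists, the neighbours and the label checks were named after their values were seen. Members, lists, mark and normalization were chosen with earlier results of these data known. Other scalings, marks, thresholds and probe set rules were tried. RefSeq promoter windows were not found for Ccl2, Ccl4, Ccl5, Ccl7, Ccl11, Ccl24, Ccl26, Ccr7, Ccr10, Cxcl5, Cxcl11, Cxcl16, Cxcl17 and Cxcr5.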

Additional observations from a re-analysis of the deposited data

How the results depend on the processing

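With values as deposited, where no scale is shared between arrays, the counts of genes higher and lower were 14 and 0 for the urethane lung over the saline lung, 27 and 0 for FULA 1 over the saline lung, and 27 and 0 for FULA 1 over the urethane lung. There Cxcl13 was 0.046 between the lungs. FULA 1 minus saline lung turned to 3.66 for Ackr2, 3.84 for Ccl9, 2.50 for Cxcl14, 3.47 for Cxcl17, 3.55 for Cxcr1 and 4.24 for Cxcr2. FULA 1 minus urethane lung turned to 2.68 for Ackr2, 2.25 for Ccl9, 1.91 for Cxcl14, 2.08 for Cxcl17, 2.10 for Cxcr1, 2.56 for Cxcr2 and 2.91 for Cxcr4. The shift of all genes by 1.09, 4.80 and 3.69 at the median is part of these values. The count lower in the urethane than in the saline lung, 1 in the report, was 2 with a common median, 3 with the quantiles of the FULA 1 array, 2 with nothing held at the mark, 6 at 1.5-fold and 0 at 4-fold. At 4-fold, FULA 1 was higher for 4 and lower for 6 against the saline lung, and higher for 4 and lower for 7 against the urethane lung. With the mark at the 99th percentile, FULA 1 was higher for 4 genes in each comparison, and 14, 14 and 12 genes were above the mark on FULA 1, the saline lung and the urethane lung. At the 75th percentile these numbers were 45, 42 and 40. Of 338 recomputed differences of called genes, 304 kept their direction and their side of the threshold, 20 no longer reached 2-fold, and 14 turned, the last all as deposited. With the 99th percentile as the mark another 4 had no size: Ccl11 and Cxcl10 against the saline lung, and Ackr2 and Cxcr4 against the urethane lung. By percentile ranks, the lowess curve, the FULA 1 quantiles, the lower mark, the probe set with the highest mean and with nothing held, all 38 called differences kept their direction. Of these settings only the lowess curve could have turned a direction. Each gene had 1 probe set, and ranks and FULA 1 quantiles keep the order of the normalized values. A lower mark, or nothing held, can only leave a called difference as it was or widen it. These settings are counted among the 304. Apart from the larger or smaller threshold and mark, whose construction sets the count, the cause was not tested. No paired analysis was possible because each group has 1 array. Low values resolve poorly on the lungs: the most frequent value was shared by 934 probe sets on the saline lung, by 1277 on the urethane lung and by 112 on FULA 1, and 23, 22 and 8 of the 53 genes had a value shared with another probe set.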

Other observations

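Chemokines outside the rule gave further values. Probe sets annotated to several genes of the Ccl21 family, lymphatic and lymph node ligands of Ccr7, numbered 9. Their median normalized log2 value was 2.52 on FULA 1, 6.39 on the saline lung but 5.82 on the urethane lung, and all 9 were above the mark on each array. Those of the Ccl19 family, also ligands of Ccr7, numbered 13, with medians of 2.37, 3.88 and 3.68. Those of the Ccl27 family, skin ligands of Ccr10, numbered 10, with medians of 2.69, 2.56 and 2.53. Such probe sets read near-identical gene copies, so no single copy can be named.

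Of the platelet chemokines Pf4 and Ppbp, Pf4 alone was called lower in the urethane than in the saline lung after normalization. Pf4 stood at 1.26 on FULA 1, at 4.99 on the saline lung and at 3.83 on the urethane lung, a difference of -1.15 between the lungs that was 0.09 as deposited. Ppbp stood at 7.80, 9.35 and 8.78, a difference of -0.58 that was not called, and at percentile rank 98.5 on FULA 1. The platelet gene Gp9 differed by -0.95 between the lungs and was below the mark on FULA 1. Of 5 platelet and megakaryocyte markers, the number above the mark was 1 on FULA 1, 3 on the saline lung but 4 on the urethane lung, with summed levels of 7.88, 9.56 and 8.95, and the one added on the urethane lung was Gp6, at 2.63. Ccrl2, a receptor relative that presents chemerin, stood at 1.85, 3.80 and 2.72, a difference of -1.08 between the lungs that was 0.40 as deposited.

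Some of the 53 genes had exactly the same deposited value on an array. Cx3cr1 and Cxcr2 shared 1.05 on the saline lung, and Ccl2 and Ccl25 shared 1.79 on the urethane lung.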
